A study of Mus musculus with 4 samples.

Results

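Glycolysis and the pentose phosphate pathway are covered here by a list of 31 genes, taken by name from 15301 gene symbols that at least 1 of 4 single-cell libraries lists. The list runs from hexokinase to lactate dehydrogenase and adds the pyruvate dehydrogenase step with its kinases, the pentose phosphate enzymes and the transcription factor gene Hif1a. All 4 libraries list 30 of the 31 genes. Ldhb is listed in the TCRβ Tcf7WT library alone, with 8 UMIs (unique molecular identifiers, the tags that count captured transcripts), and gets no value elsewhere. The libraries came from intraepithelial lymphocytes (IELs), T cells that live within the gut lining, taken from the mouse colon. Sorted live CD3+ CD8α+ cells carried either the γδ or the β T cell receptor, and each sort was profiled as Tcf7KO and as Tcf7WT with a droplet-based 3′ kit. The groups were therefore TCRγδ Tcf7KO, TCRγδ Tcf7WT, TCRβ Tcf7KO and TCRβ Tcf7WT, with 1 library each and no age, sex or number of animals in the sources used here. All 4 carry the same strain label, E8IcreTcf7fl/fl, in which Tcf7 is floxed and Cre is driven by E8I, a Cd8a enhancer known to be active in mature CD8+ T cells, so the genotype label alone tells Tcf7KO from Tcf7WT. The cell type label of the γδ sort names TCRγ, read here as TCRγδ after the titles.

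Glycolysis splits glucose into pyruvate in the cytosol. Hexokinase traps glucose as glucose 6-phosphate, phosphofructokinase commits it to the pathway, and lactate dehydrogenase turns the pyruvate into lactate and so restores the NAD+ that the pathway consumes. Pyruvate dehydrogenase instead turns pyruvate into acetyl-CoA inside the mitochondrion, and its kinases switch that step off. The pentose phosphate pathway draws on the same glucose 6-phosphate to make NADPH and ribose for nucleotides. In T cells, activation through the receptor is known to raise glucose uptake and glycolytic enzyme transcripts, in part through Myc and HIF-1α, while resting memory cells are known for lower glycolytic flux.

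Cells with a summed count of 10 or more UMIs of the epithelial genes Krt8, Krt19, Pigr and Epcam were left out, which removed 20, 18, 3 and 11 cells from TCRγδ Tcf7KO, TCRγδ Tcf7WT, TCRβ Tcf7KO and TCRβ Tcf7WT. The kept cells numbered 1491, 1870, 5782 and 7592 in the same order, with 6740143, 6093349, 18262777 and 20159687 UMIs and medians of 4352, 3190, 2860 and 2430 UMIs per cell. Pairs of libraries shared 1 to 10 cell barcodes. All 10 T cell markers were detected in every library, and Trdc, the δ chain constant gene, stood at 2031 and 1978 CPM in the TCRγδ libraries (Tcf7KO and Tcf7WT) against 14.8 and 15.5 CPM in the TCRβ libraries. CPM are a gene's UMIs summed over cells and scaled to a common total of all UMIs of those cells. Tcf7 itself, which encodes the transcription factor TCF-1, stood at 15.4 CPM in TCRγδ Tcf7KO against 46.4 CPM in TCRγδ Tcf7WT, and at 107.5 CPM in TCRβ Tcf7KO against 148.8 CPM in TCRβ Tcf7WT. The sources used here do not say which part of the gene was deleted, so 3′ tags do not check the genotype labels.

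The list took a similar share of all transcripts in the 4 libraries. It summed to 0.358% of UMIs in TCRγδ Tcf7KO against 0.344% in TCRγδ Tcf7WT, and to 0.346% in TCRβ Tcf7KO against 0.361% in TCRβ Tcf7WT. With 1 library per group no difference between genotypes or between sorts was tested, and the ranges printed beside ratios and levels are exact 95% intervals that cover counting error only. A gene is called apart at 1.5-fold or more, among genes with at least 20 UMIs over both libraries. Cells of the same library were also compared by whether they held a UMI of Gzma, the gene of granzyme A, a protease of cytotoxic granules, and that comparison has 4 libraries as replicates.

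Most of the list's UMIs came from 6 genes of the upper pathway, the lower pathway and its pentose branch. A 3′ kit counts each transcript by its end, so the levels are per transcript with no length correction. Over the 4 libraries the ranges were 376 to 432 CPM for Aldoa (aldolase), 362 to 423 CPM for Ldha (lactate dehydrogenase), 346 to 366 CPM for Gpi1 (glucose phosphate isomerase), 340 to 363 CPM for Eno1 (enolase), 325 to 368 CPM for Pkm (pyruvate kinase) and 292 to 368 CPM for Taldo1 (transaldolase). For each of them the highest library was less than 1.5-fold above the lowest. Next came Tkt (transketolase) at 176 to 220.3 CPM, Gapdh at 141 to 214 CPM, Pfkp at 146 to 184 CPM, Tpi1 at 129 to 154 CPM and Hk1 at 84.1 to 109 CPM. Intermediate levels were held by Pdhb at 67.1 to 82.1 CPM, Hif1a at 65.2 to 79.7 CPM, Pgd, the second NADPH-making dehydrogenase of the pentose pathway, at 66.1 to 77.2 CPM, Pdha1 at 46.0 to 56.2 CPM and Rpia, the ribose 5-phosphate isomerase gene, at 42.0 to 45.7 CPM. Of the sparse genes not given in full elsewhere, Pfkl, the liver form of phosphofructokinase, had 30.5 to 35.3 CPM, Pdk3 19.9 to 27.3 CPM, Rpe, the ribulose phosphate epimerase gene, 16.02 to 21.1 CPM and Pdk2 8.23 to 11.9 CPM.

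Of the listed genes, 4 fell and 1 rose in Gzma-positive cells. Eno3 and Hk2 had the largest changes, both lower in the Gzma-positive cells, followed by Hk1, which was higher, and then by Pdk1 and Tpi1, which were lower. The Gzma-positive cells numbered 1315, 1156, 1882 and 755 in TCRγδ Tcf7KO, TCRγδ Tcf7WT, TCRβ Tcf7KO and TCRβ Tcf7WT, against 176, 714, 3900 and 6837 Gzma-negative cells. UMIs were summed per library and class and tested with edgeR's quasi-likelihood test with the library as a block, over 10937 genes. Of these genes 3.85% rose and 3.47% fell at a Benjamini-Hochberg adjusted p below 0.05. Of the 29 listed genes tested, 1 rose, 4 fell and 24 did not pass; Aldoc did not pass the filter on low counts and Ldhb is not listed in all 4 libraries. The median log2 fold change of the 29 was -0.09, beside -0.0027 over all genes tested, and 22 of the 29 lay below 0, beside 50.6% of all genes tested. The whole list summed to a lower share of UMIs in the Gzma-positive cells of each library. That share was 0.352% against 0.400% in TCRγδ Tcf7KO, 0.331% against 0.366% in TCRγδ Tcf7WT, 0.336% against 0.351% in TCRβ Tcf7KO and 0.335% against 0.364% in TCRβ Tcf7WT, with the Gzma-positive cells first in each pair. The totals include Gzma itself, at 12733.4 to 22935.5 CPM in Gzma-positive cells, which lowers the shares of other genes there. The median log2 ratio over all genes was -0.03, -0.05, -0.04 and -0.07 in the same order of libraries. For the listed genes it was -0.20, -0.18, -0.08 and -0.16.

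**Figure D1:**
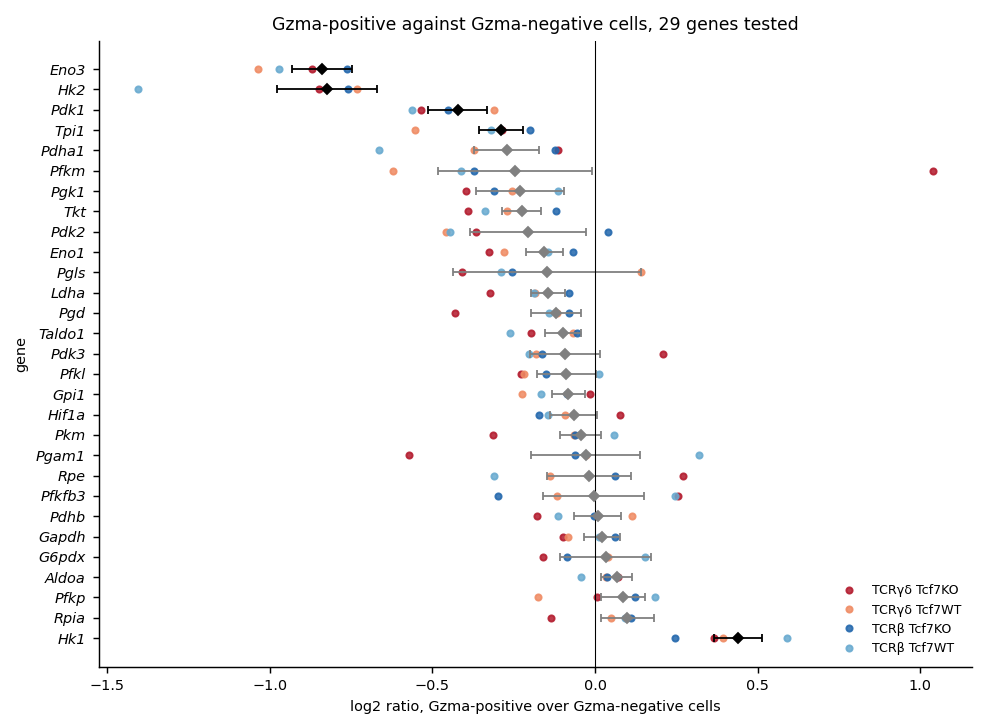
Log2 ratio of CPM, Gzma-positive over Gzma-negative cells, for the 29 listed genes tested. Coloured points are the 4 libraries, diamonds with bars are the fitted log2 fold change ± SE, and black diamonds passed the test. Eno3, Hk2, Pdk1 and Tpi1 lie left of 0 in every library and Hk1 lies right of 0 in every library.

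Eno3 encodes the β subunit of enolase, which makes phosphoenolpyruvate and is best known from muscle. It stood at 24.3 CPM in Gzma-positive against 44.4 CPM in Gzma-negative cells of TCRγδ Tcf7KO, and at 15.7 against 32.2 CPM in TCRγδ Tcf7WT. In the TCRβ sort the levels were 30.98 CPM in Gzma-positive against 52.5 CPM in Gzma-negative cells of Tcf7KO, and 27.1 against 53.2 CPM in Tcf7WT. Each Gzma-positive value lay below all 4 Gzma-negative values. The fitted log2 fold change was -0.84 ± 0.092 (SE; edgeR adjusted p = 0.00141), lower in 4 of 4 libraries. Eno1, the enolase gene of most tissues, did not pass, with a log2 fold change of -0.16 ± 0.056 (edgeR adjusted p = 0.134). Reads of Eno1 may be shared with the near-identical copy Eno1b, which had 329 to 751 UMIs per library.

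Hk2 encodes the hexokinase that activated lymphocytes and muscle are known to induce. Its level was 11.6 CPM in Gzma-positive against 20.95 CPM in Gzma-negative cells of TCRγδ Tcf7KO, and 9.04 against 15.004 CPM in TCRγδ Tcf7WT. The TCRβ Tcf7KO cells had 14.9 CPM when Gzma-positive against 25.2 CPM when Gzma-negative, and the TCRβ Tcf7WT cells had 4.45 against 11.8 CPM. Hk2 was lower in Gzma-positive cells within every library but the classes overlap across libraries, since the TCRβ Tcf7WT Gzma-negative value lies under the TCRβ Tcf7KO Gzma-positive value. The log2 fold change was -0.82 ± 0.154 (SE; edgeR adjusted p = 0.0129), and the TCRβ Tcf7WT Gzma-positive level rests on 10 UMIs. Hk1 encodes the hexokinase of most tissues and went the other way. It stood at 104.7 CPM in Gzma-positive against 81.3 CPM in Gzma-negative cells of TCRγδ Tcf7KO, and at 119.9 against 91.3 CPM in TCRγδ Tcf7WT. Its TCRβ levels were 106.7 against 89.95 CPM in Tcf7KO and 119.7 against 79.6 CPM in Tcf7WT, again with Gzma-positive cells first. All 4 Gzma-positive values lay above all 4 Gzma-negative values. The log2 fold change was 0.44 ± 0.074 (SE; edgeR adjusted p = 0.00858). Hk1 lies on chromosome 10 from 62268855 to 62379908, on its minus strand, with the antisense gene Hk1os inside it.

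Pdk1, on chromosome 2 from 71873224 to 71903858, encodes a kinase that shuts off pyruvate dehydrogenase and is a known HIF-1 target. Its CPM were 22.9 in Gzma-positive against 33.3 in Gzma-negative cells of TCRγδ Tcf7KO, 26.6 against 33.0 in TCRγδ Tcf7WT, 27.9 against 38.1 in TCRβ Tcf7KO and 32.9 against 48.7 in TCRβ Tcf7WT. All 4 Gzma-positive values lay below all 4 Gzma-negative values, the nearest pair being 32.9 and 33.0 CPM from different libraries. The log2 fold change was -0.42 ± 0.091 (SE; edgeR adjusted p = 0.0226). The other pyruvate dehydrogenase kinase genes, Pdk2 and Pdk3, did not pass, at -0.21 ± 0.177 and -0.09 ± 0.107. Tpi1, on chromosome 6 from 124810586 to 124814296, encodes triosephosphate isomerase, which interconverts the triose phosphates that aldolase makes. Its CPM were 138.3 in Gzma-positive against 168.8 in Gzma-negative cells of TCRγδ Tcf7KO, 109.3 against 160.3 in TCRγδ Tcf7WT, 133.5 against 153.5 in TCRβ Tcf7KO and 125.9 against 157.1 in TCRβ Tcf7WT. All 4 Gzma-positive values lay below all 4 Gzma-negative values. The log2 fold change was -0.29 ± 0.068 (SE; edgeR adjusted p = 0.0302). Tpi1 overlaps Spsb2 on the opposite strand by 34 bases at its 3′ end, and whether the counting used strand is not given in the sources used here.

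**Figure D2:**
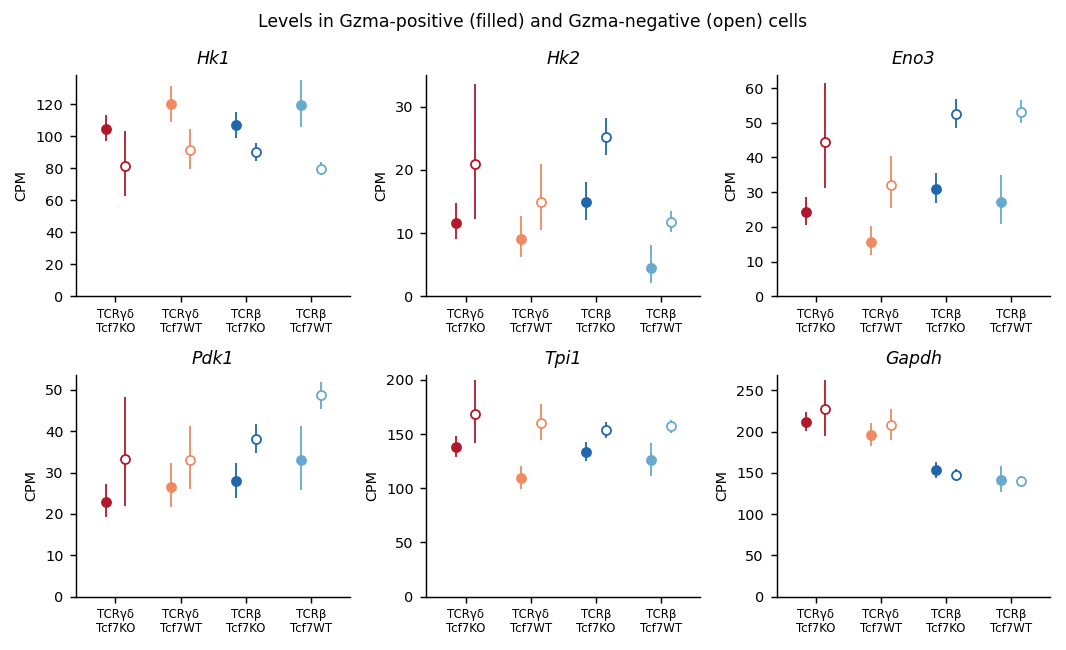
Level in CPM of the 5 genes called in the Gzma comparison and of Gapdh, in Gzma-positive (filled) and Gzma-negative (open) cells of each library, with exact 95% counting intervals. Filled points of Eno3 and Tpi1 all lie under the open ones and those of Hk1 all lie above them, while Gapdh is split by sort rather than by class.

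The remaining steps of the pathway did not pass the test. Among glycolytic enzymes, log2 fold changes ran from -0.25 for Pfkm, the muscle form of phosphofructokinase, to 0.09 for Pfkp, the form known from platelets. Gapdh, the dehydrogenase of the pathway's oxidation step, was at 0.02 ± 0.056. Aldoa, the aldolase of most tissues, was at 0.07 ± 0.047, and Ldha, the main lactate dehydrogenase subunit of T cells, at -0.14 ± 0.053 (edgeR adjusted p = 0.136). In the pentose phosphate pathway, Tkt, which encodes transketolase, came nearest to the threshold at -0.23 ± 0.060 (edgeR adjusted p = 0.0512), lower in 4 of 4 libraries. The gene of its partner transaldolase, Taldo1, was at -0.10 ± 0.055. G6pdx, Pgd, Rpia, Rpe and Pgls lay between -0.15 and 0.10. Hif1a was at -0.07 ± 0.071. The pyruvate dehydrogenase subunit genes Pdha1 and Pdhb were at -0.27 ± 0.101 (edgeR adjusted p = 0.143) and 0.0075 ± 0.072.

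The classes differed in more than Gzma. Median UMIs per cell were 4351 in Gzma-positive against 4375.5 in Gzma-negative cells of TCRγδ Tcf7KO, 3196 against 3158.5 in TCRγδ Tcf7WT, 3173 against 2738 in TCRβ Tcf7KO and 2731 against 2396 in TCRβ Tcf7WT. In 1 alternative, cells were thinned to 1500 UMIs before they were classed, with shallower cells left out. Eno3 and Pdk1 were then still called, while Hk2, Hk1 and Tpi1 were not. The log2 fold changes were -1.08 for Hk2 (edgeR adjusted p = 0.097), 0.39 for Hk1 (0.0748) and -0.25 for Tpi1 (0.22). Without the library as a block none of the 5 passed, with log2 fold changes of -0.87 for Eno3 (edgeR adjusted p = 0.152), 0.44 for Hk1 (0.117), -0.71 for Hk2 (0.426), -0.48 for Pdk1 (0.214) and -0.28 for Tpi1 (0.27). With any 1 library left out, all 5 kept their direction. Without TCRβ Tcf7KO only Eno3 and Hk1 of the 5 were called, and without TCRβ Tcf7WT only Eno3 (edgeR adjusted p = 0.0108). Without TCRγδ Tcf7KO, Pdk1 (0.0724) and Tpi1 (0.0942) were lost, and without TCRγδ Tcf7WT, Tpi1 (0.0833). A Gzma UMI was also found in 16 of the 52 left-out cells with epithelial transcripts, and the source of these UMIs was not tested. When only cells with 3 or more Gzma UMIs counted as positive, the log2 fold change was -1.28 for Eno3 (edgeR adjusted p = 0.00609) and -1.19 for Hk2 (edgeR adjusted p = 0.0247). The 52 left-out cells held 123 to 324 CPM of Eno3 in 3 libraries and 36.6 CPM in TCRβ Tcf7KO, and 155 to 459 CPM of Hk2, where the kept cells held 22.0 to 50.3 CPM of Eno3 and 10.96 to 21.5 CPM of Hk2. In the kept cells the epithelial marker list, with 14 to 16 of 16 genes listed, summed to 295 CPM in Gzma-positive against 251 CPM in Gzma-negative cells of TCRγδ Tcf7KO, 276 against 309 CPM in TCRγδ Tcf7WT, 248 against 196 CPM in TCRβ Tcf7KO and 225 against 203 CPM in TCRβ Tcf7WT. Most of each sum was Epcam, a gene by which cells were left out. Epcam stood at 149 to 212 CPM in Gzma-positive and 153 to 173 CPM in Gzma-negative cells. These sums are limited by the filter and do not measure epithelial transcripts apart from it. With cells of 2 or more epithelial UMIs left out, a setting added after the data were seen, Eno3 was at -0.84, Hk2 at -0.83, Pdk1 at -0.45 and Hk1 at 0.41, all still called, and Tpi1 was not (edgeR adjusted p = 0.0563).

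Markers of other cells moved with the class in places, and their part in the result was not tested. The myeloid list, of which 2 of 6 genes are listed and which was nearly all Itgax, a gene that IELs can also express, summed to 27.0, 69.9, 23.1 and 69.9 CPM in Gzma-positive cells of TCRγδ Tcf7KO, TCRγδ Tcf7WT, TCRβ Tcf7KO and TCRβ Tcf7WT, against 24.6, 27.0, 6.01 and 5.97 CPM in Gzma-negative cells. Cd14 had 0 to 2 UMIs per library. The mast cell list, nearly all Kit, was lower in Gzma-positive cells, at 94.3 to 142 CPM against 134 to 295 CPM. Haemoglobin transcripts were listed only in the TCRβ libraries, with 1 UMI in Gzma-positive cells of each against 1214 and 1813 UMIs in Gzma-negative cells of Tcf7KO and Tcf7WT. Cycling cells made up 1.75% to 2.28% of Gzma-positive and 1.26% to 5.68% of Gzma-negative cells. Without cycling cells all 5 genes were still called.

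The windows around the start sites of the 5 called genes are shown because these genes changed in the same comparison, 4 down and 1 up. RefSeq's table for GRCm38.p6 gives 46 such windows, from 250 bases before to 50 bases after a start, and all 31 listed genes matched. The letters ACGTG and GCGTG, the core of the element that HIF-1 is known to bind, were searched on both strands and stand in capitals. Every window that the table gives for these 5 genes is shown; 3′ tags do not tell which start was used.
Hk2, chr6:82774405-82774704, minus strand: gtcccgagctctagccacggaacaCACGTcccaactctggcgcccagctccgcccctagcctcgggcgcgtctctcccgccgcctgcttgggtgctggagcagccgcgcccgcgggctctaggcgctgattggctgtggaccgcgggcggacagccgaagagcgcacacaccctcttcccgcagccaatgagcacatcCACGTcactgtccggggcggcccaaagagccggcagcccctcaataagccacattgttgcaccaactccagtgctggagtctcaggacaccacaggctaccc
Pdk1, outermost start, chr2:71872974-71873273, plus strand: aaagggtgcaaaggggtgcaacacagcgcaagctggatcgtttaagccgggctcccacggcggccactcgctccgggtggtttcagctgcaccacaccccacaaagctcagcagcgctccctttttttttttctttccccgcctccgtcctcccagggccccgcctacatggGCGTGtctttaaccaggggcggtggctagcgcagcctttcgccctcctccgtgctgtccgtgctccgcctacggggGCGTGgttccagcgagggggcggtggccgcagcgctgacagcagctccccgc
Pdk1, inner start, chr2:71874654-71874953, plus strand: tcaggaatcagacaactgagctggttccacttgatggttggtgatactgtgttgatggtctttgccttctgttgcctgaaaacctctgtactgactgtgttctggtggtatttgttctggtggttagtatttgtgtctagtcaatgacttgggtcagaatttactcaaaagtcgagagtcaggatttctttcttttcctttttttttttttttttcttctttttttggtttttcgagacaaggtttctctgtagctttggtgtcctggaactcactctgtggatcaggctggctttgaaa
Eno3, chr11:70656926-70657225, plus strand: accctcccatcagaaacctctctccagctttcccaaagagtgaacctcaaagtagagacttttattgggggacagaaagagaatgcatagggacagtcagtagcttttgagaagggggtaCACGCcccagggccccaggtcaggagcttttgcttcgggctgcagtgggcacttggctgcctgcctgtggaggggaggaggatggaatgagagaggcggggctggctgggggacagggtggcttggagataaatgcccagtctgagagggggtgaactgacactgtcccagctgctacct
Tpi1, chr6:124814109-124814408, minus strand: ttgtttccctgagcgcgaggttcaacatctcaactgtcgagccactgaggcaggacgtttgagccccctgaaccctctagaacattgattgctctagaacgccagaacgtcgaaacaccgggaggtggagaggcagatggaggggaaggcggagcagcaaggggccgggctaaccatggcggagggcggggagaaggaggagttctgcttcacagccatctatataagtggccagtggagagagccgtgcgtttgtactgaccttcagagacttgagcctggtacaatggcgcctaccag
Hk1, outermost start, chr10:62379859-62380158, minus strand: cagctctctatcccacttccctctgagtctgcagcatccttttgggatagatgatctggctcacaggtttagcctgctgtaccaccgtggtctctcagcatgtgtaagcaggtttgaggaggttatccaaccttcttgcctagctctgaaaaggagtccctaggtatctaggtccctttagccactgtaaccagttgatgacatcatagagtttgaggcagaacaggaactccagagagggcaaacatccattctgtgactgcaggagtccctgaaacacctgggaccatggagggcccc
Hk1, inner start, chr10:62340372-62340671, minus strand: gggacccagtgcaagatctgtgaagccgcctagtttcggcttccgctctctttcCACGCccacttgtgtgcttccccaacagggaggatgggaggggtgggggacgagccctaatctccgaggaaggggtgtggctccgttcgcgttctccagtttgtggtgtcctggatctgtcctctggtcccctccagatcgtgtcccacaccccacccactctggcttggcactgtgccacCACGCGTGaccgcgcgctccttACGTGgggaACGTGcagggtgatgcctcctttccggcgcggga
The Hk2 window and the outermost Pdk1 window hold 2 matches each and the Eno3 window holds 1. No match stands in the Tpi1 window or at the outermost Hk1 start, whereas the inner Hk1 window holds 5. The inner Pdk1 window holds 0. At least 1 match was found in 36 of the 46 windows of listed genes (78.3%), beside 43.8% of all 32851 windows in the table. Eno1, Aldoa and Pfkm each have windows that overlap, so some matches are counted more than once. Both cores hold the letters CG, and the windows were not compared at equal base content. All windows in the table belong to 27025 genes, beside 15301 symbols that any library lists, so the background was not limited to genes like those listed. The difference in shares was not tested. The letters CACGTG, the E-box that Myc is known to bind and which contains ACGTG, stood in 5 of the 46 windows (10.9%), beside 7.15% of all windows. The letters CTTTGA or CTTTGT, a core that TCF-1 is known to bind, were found in 13 of the 46 windows (28.3%), beside 31.2% of all. A match describes letters in a window and is not evidence that a factor binds there.

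Between genotypes few listed genes were apart, and Hk2 in the TCRβ sort stood out by size. Hk2 is on the minus strand of chromosome 6, between 82725025 and 82774454 in GRCm38. It had 393 UMIs, or 21.5 CPM (19.4 to 23.8), in TCRβ Tcf7KO against 221 UMIs, or 10.96 CPM (9.56 to 12.5), in TCRβ Tcf7WT. The 2 intervals do not overlap, and the log2 ratio was 0.97 (0.73 to 1.22). The TCRγδ libraries had 12.8 CPM (10.2 to 15.8) for Tcf7KO against 11.3 CPM (8.81 to 14.3) for Tcf7WT. That is a log2 ratio of 0.17 (-0.30 to 0.65), which depended on the cells used. It was -0.25 with cells of 2 or more epithelial UMIs left out, 1.07 with cells thinned to 1500 UMIs, on 52 UMIs, and 1.47 with the epithelial cells kept. In the kept cells TCRβ Tcf7KO was the high library and the other three overlapped in their intervals, and the difference between the sorts' ratios was not tested. Gzma-positive cells were commoner in TCRβ Tcf7KO than in TCRβ Tcf7WT, and Hk2 was lower in Gzma-positive cells, so the ratio was also taken within each class. It was 1.74 (0.80 to 2.85) in Gzma-positive cells, at 14.9 CPM in Tcf7KO against 4.45 CPM in Tcf7WT, and 1.09 (0.84 to 1.36) in Gzma-negative cells, at 25.2 against 11.8 CPM. Thinning to 1500 UMIs left out shallower cells. It used 1472 of 1491 TCRγδ Tcf7KO, 1636 of 1870 TCRγδ Tcf7WT, 5411 of 5782 TCRβ Tcf7KO and 7090 of 7592 TCRβ Tcf7WT cells. Among thinned cells a Hk2 UMI was found in 2.57% of TCRβ Tcf7KO (2.16 to 3.03) against 1.07% of TCRβ Tcf7WT cells (0.845 to 1.34). Unthinned, over all kept cells, the shares were 5.03% against 2.28%. The thinned shares in the TCRγδ sort were 2.04% (1.38 to 2.897) in Tcf7KO against 1.10% (0.653 to 1.73) in Tcf7WT. No cell type that should lack Hk2 was measured here, so these shares have no background to be set against, and the left-out epithelial cells held more Hk2 than the kept cells. The largest count of Hk2 in 1 cell was 9 UMIs in each TCRβ library.

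In the TCRβ sort 30 listed genes were counted, of which 1, Hk2, was at least 1.5-fold higher and 1, Pfkm, at least 1.5-fold lower in Tcf7KO. Over all 12752 genes counted there, 3.10% were that much higher and 5.70% that much lower. The median log2 ratio of the list was -0.07, the same as the -0.07 of all genes. Pfkm, on chromosome 15 from 98092589 to 98132451, had 5.53 CPM in Tcf7KO against 8.63 CPM in Tcf7WT, a log2 ratio of -0.64 (-1.01 to -0.28) on 275 UMIs. Scaled by TMM or by DESeq2 size factors it came just under 1.5-fold, as it did within Gzma-positive (-0.52) and Gzma-negative cells (-0.56). The pyruvate dehydrogenase kinase gene Pdk1 was lower without reaching 1.5-fold, at 34.5 CPM in Tcf7KO against 46.9 CPM in Tcf7WT (-0.44, -0.59 to -0.30). Pfkp was at 145.9 CPM in Tcf7KO against 174.8 CPM in Tcf7WT (-0.26, -0.33 to -0.19), and Hk1 at 95.9 against 84.1 CPM (0.19, 0.09 to 0.29). Within classes, with Tcf7KO first, Pdk1 was at 27.9 against 32.9 CPM in Gzma-positive and 38.1 against 48.7 CPM in Gzma-negative cells. Hk1 turned lower in Gzma-positive Tcf7KO cells, at 106.7 against 119.7 CPM, and was higher in Gzma-negative ones, at 89.95 against 79.6 CPM. Ldha, Pkm, Tkt and Taldo1, the abundant genes of lactate dehydrogenase, pyruvate kinase, transketolase and transaldolase, lay between -0.14 and -0.09, beside the median of -0.07 over all genes.

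In the TCRγδ sort 29 listed genes were counted, of which 0 were at least 1.5-fold higher and 1, Pfkfb3, was at least 1.5-fold lower in Tcf7KO. The shares over all 11242 genes counted were 3.81% higher and 8.23% lower. The list's median log2 ratio was 0.04, beside -0.06 over all genes. Pfkfb3, whose product makes the fructose bisphosphate that activates phosphofructokinase, had 10.1 CPM in Tcf7KO against 15.9 CPM in Tcf7WT, a log2 ratio of -0.66 (-1.13 to -0.20) on 165 UMIs. Its TCRβ levels were 13.5 CPM in Tcf7KO against 14.2 CPM in Tcf7WT (-0.07, -0.32 to 0.18). With each cell weighing the same, the TCRγδ ratio was -0.40. Pdk1 was at 24.2 CPM in Tcf7KO against 29.1 CPM in Tcf7WT (-0.26, -0.58 to 0.05). Ldha was at 403 against 362 CPM (0.16, 0.07 to 0.24) and Tkt at 192 against 176 CPM (0.12, 0.01 to 0.24), with Tcf7KO first. Eno3, at 26.7 CPM in Tcf7KO against 22.0 CPM in Tcf7WT over all cells (0.28, -0.05 to 0.61), was 0.63 (0.18 to 1.09) in Gzma-positive cells alone, at 24.3 against 15.7 CPM.

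**Figure D3:**
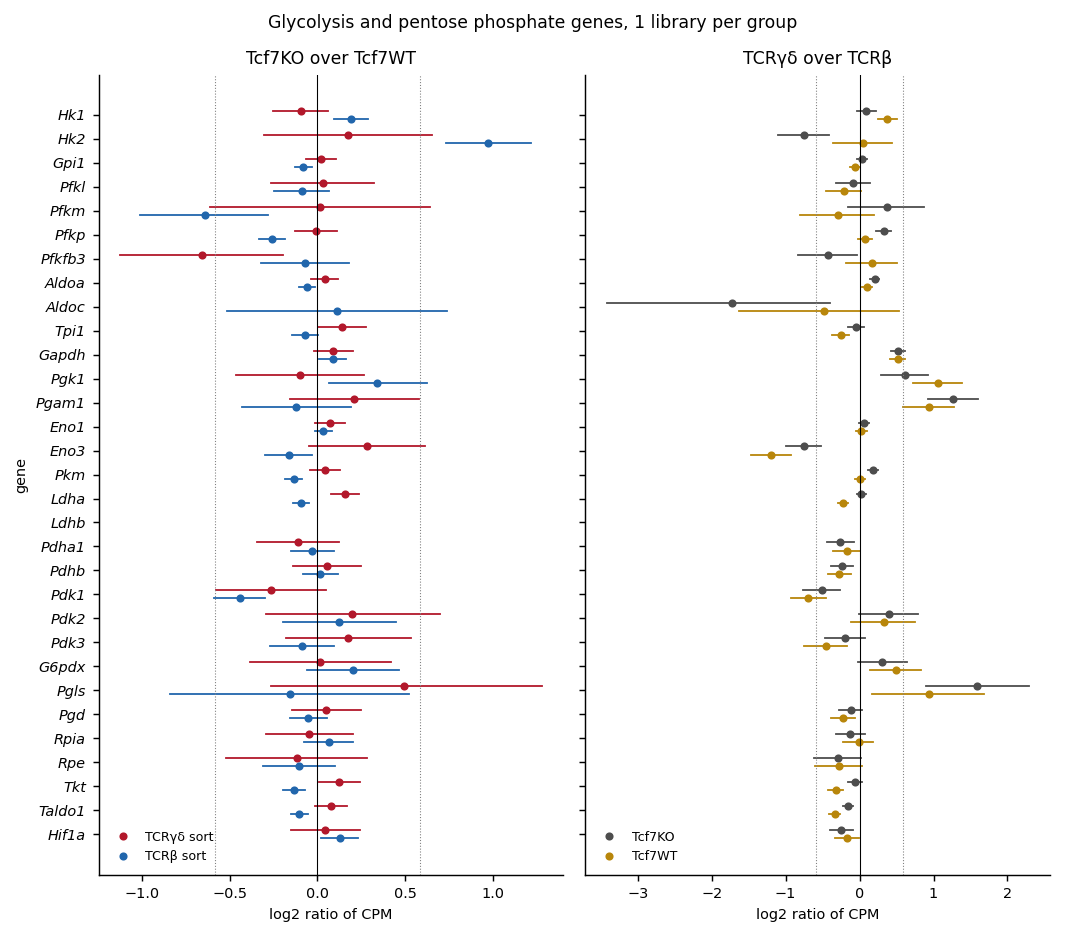
Log2 ratio of CPM with its exact 95% counting interval for each listed gene, Tcf7KO over Tcf7WT in each sort (left) and TCRγδ over TCRβ in each genotype (right). Dotted lines mark 1.5-fold and Ldhb has no value. On the left Hk2 in the TCRβ sort is the point farthest from 0, and on the right Pgam1, Pgk1 and Pgls lie above and Eno3 lies below 0 in both genotypes.

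Between sorts the ratios were wider. The 2 sort comparisons share their libraries with the genotype comparisons, so the values of each are given side by side and no overlap is counted. In Tcf7KO 3 of 30 listed genes, Pgam1, Pgk1 and Pgls, were at least 1.5-fold higher and 3, Eno3, Hk2 and Aldoc, at least 1.5-fold lower in TCRγδ than in TCRβ cells. Of all 11960 genes counted, 7.98% were higher and 11.9% lower, and the medians were -0.05 for the list and -0.10 for all genes. In Tcf7WT 3 of 30, again Pgam1, Pgk1 and Pgls, were higher and 2, Eno3 and Pdk1, lower, beside 9.06% and 10.2% of all 12174 genes. There the medians were -0.12 for the list and -0.09 for all genes. These shares are close to the background.

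Eno3 lies on chromosome 11 from 70657202 to 70662513, on the plus strand. It had 26.7 CPM in TCRγδ Tcf7KO against 44.9 CPM in TCRβ Tcf7KO, a log2 ratio of -0.75 (-0.99 to -0.52), and 22.0 CPM in TCRγδ Tcf7WT against 50.3 CPM in TCRβ Tcf7WT, a log2 ratio of -1.19 (-1.46 to -0.93). Both TCRγδ libraries were low and both TCRβ libraries high, with intervals that do not overlap. With the 52 epithelial cells kept, the ratios were -0.07 in Tcf7KO and -0.91 in Tcf7WT, and with cells thinned -0.57 and -1.07, so the Tcf7KO ratio reached 1.5-fold under neither. A larger share of TCRγδ than of TCRβ cells was Gzma-positive, at 88.2% against 32.5% in Tcf7KO and 61.8% against 9.94% in Tcf7WT. Within a class the Eno3 gap was smaller. In Gzma-positive cells the log2 ratio was -0.35 (-0.67 to -0.03) in Tcf7KO and -0.79 (-1.33 to -0.25) in Tcf7WT. In Gzma-negative cells it was -0.24 (-0.77 to 0.24) in Tcf7KO and -0.73 (-1.09 to -0.39) in Tcf7WT. Thinned to 1500 UMIs, 3.53% of TCRγδ Tcf7KO cells (2.65 to 4.61) against 4.92% of TCRβ Tcf7KO cells (4.36 to 5.53) held an Eno3 UMI, and 2.93% of TCRγδ Tcf7WT (2.17 to 3.87) against 6.09% of TCRβ Tcf7WT cells (5.55 to 6.68). Unthinned these shares were 9.05% against 9.72% in Tcf7KO and 6.04% against 10.5% in Tcf7WT.

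Pgam1 and Pgk1 encode phosphoglycerate mutase and phosphoglycerate kinase, neighbouring steps of the lower pathway. Pgam1, on chromosome 19 from 41911923 to 41918660, had 21.1 CPM in TCRγδ Tcf7KO against 8.76 CPM in TCRβ Tcf7KO (1.27, 0.93 to 1.60), and 18.2 CPM in TCRγδ Tcf7WT against 9.52 CPM in TCRβ Tcf7WT (0.94, 0.59 to 1.28). Pgk1, on chromosome X from 106187100 to 106203699, had 19.4 CPM in TCRγδ Tcf7KO against 12.7 CPM in TCRβ Tcf7KO (0.61, 0.29 to 0.93), and 20.8 CPM in TCRγδ Tcf7WT against 10.02 CPM in TCRβ Tcf7WT (1.06, 0.72 to 1.38). For both genes the TCRγδ libraries were high in each genotype. Within Gzma classes the Pgam1 ratios ran from 0.64 to 1.73 and the Pgk1 ratios from 0.77 to 1.20. Gapdh moved the same way by less, at 214 CPM in TCRγδ Tcf7KO against 149 CPM in TCRβ Tcf7KO (0.52, 0.43 to 0.61) and 201 against 141 CPM in Tcf7WT (0.51, 0.42 to 0.61). Gapdh, Pgam1 and Pgk1 are known for processed copies elsewhere in the genome that can take reads, so their levels are uncertain. Pgls, the gene of the lactonase of the pentose phosphate pathway, was higher in TCRγδ cells at 5.79 CPM against 1.92 CPM in Tcf7KO (1.59, 0.90 to 2.30) and 4.10 against 2.13 CPM in Tcf7WT (0.94, 0.17 to 1.69), on 74 and 68 UMIs. Its 3′ end overlaps Fam129c on the same strand, so its count is uncertain too.

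Hk2 was lower in TCRγδ than in TCRβ cells of Tcf7KO, at 12.8 against 21.5 CPM (-0.75, -1.11 to -0.41), and close in Tcf7WT at 11.3 against 10.96 CPM (0.05, -0.36 to 0.44). In Gzma-positive cells of Tcf7WT the ratio was 1.02 (-0.03 to 2.20), on 34 against 10 UMIs. With the 52 epithelial cells kept, the Tcf7KO ratio turned to 0.85, with cells thinned it was -0.37, and within Gzma classes it was -0.35 (-0.82 to 0.11) in positive and -0.26 (-1.06 to 0.44) in negative cells. Pdk1 was at 24.2 CPM in TCRγδ against 34.5 CPM in TCRβ cells of Tcf7KO (-0.51, -0.77 to -0.26) and at 29.1 against 46.9 CPM in Tcf7WT (-0.69, -0.93 to -0.46). Within classes the Pdk1 ratios in Tcf7WT were -0.31 (-0.76 to 0.15) in Gzma-positive and -0.56 (-0.92 to -0.22) in Gzma-negative cells. In Tcf7KO the Pdk1 gap was also smaller within classes. Its levels were 22.9 against 27.9 CPM in Gzma-positive and 33.3, on 27 UMIs, against 38.1 CPM in Gzma-negative cells, TCRγδ first. The aldolase gene Aldoc rests on 50 UMIs in Tcf7KO, at 0.742 CPM in TCRγδ against 2.46 CPM in TCRβ cells (-1.73, -3.42 to -0.40), and was at -0.23 with the epithelial cells kept. G6pdx, the entry enzyme of the pentose phosphate pathway, was at 16.8 against 13.5 CPM in Tcf7KO (0.31, -0.02 to 0.64) and 16.6 against 11.8 CPM in Tcf7WT (0.50, 0.14 to 0.84), with TCRγδ cells first. Its interval clears 0 in Tcf7WT alone. G6pdx overlaps Ikbkg on the opposite strand by 19712 bases, its 3′ end included. The counting strand is not given, so the G6pdx count is uncertain.

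For 4 steps that several genes encode, the same gene held most of the step's UMIs in every library. These were hexokinase (Hk1), phosphofructokinase (Pfkp), aldolase (Aldoa) and enolase (Eno1). For pyruvate dehydrogenase kinase, Pdk1 had the largest share in every library but held most of the UMIs in TCRβ Tcf7WT alone. Aldoa took 99.3% to 99.8% of aldolase UMIs, and Pfkp took 82.7% and 83.0% of phosphofructokinase UMIs in TCRγδ Tcf7KO and Tcf7WT, against 79.0% and 79.9% in TCRβ Tcf7KO and Tcf7WT. Ldha was the only lactate dehydrogenase gene of the list with a value in 3 libraries and took 99.9% in TCRβ Tcf7WT. Hk2 took 11.1% of hexokinase UMIs in TCRγδ Tcf7KO (8.996 to 13.6), 9.41% in TCRγδ Tcf7WT (7.40 to 11.8), 18.3% in TCRβ Tcf7KO (16.7 to 20.03) and 11.5% in TCRβ Tcf7WT (10.1 to 13.1). TCRβ Tcf7KO is the high library, and the others overlap. Eno3 took 6.84% (5.91 to 7.88), 5.97% (5.03 to 7.03), 11.4% (10.7 to 12.2) and 12.9% (12.1 to 13.6) of enolase UMIs in the same order, so the sorts do not overlap. Pdk1 took 41.4% (36.5 to 46.4), 49.03% (43.8 to 54.3), 49.9% (47.1 to 52.7) and 56.9% (54.5 to 59.3) of pyruvate dehydrogenase kinase UMIs, again in that order. Neighbouring shares in that order overlap except those of TCRβ Tcf7KO and TCRβ Tcf7WT. In TCRγδ Tcf7KO the 38.3% of Pdk3 (33.5 to 43.3) overlaps the share of Pdk1. In Gzma-positive against Gzma-negative cells the Hk2 share was 10% against 20.5% in TCRγδ Tcf7KO, 7.01% against 14.1% in TCRγδ Tcf7WT, 12.2% against 21.9% in TCRβ Tcf7KO and 3.58% against 12.9% in TCRβ Tcf7WT.

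**Figure D4:**
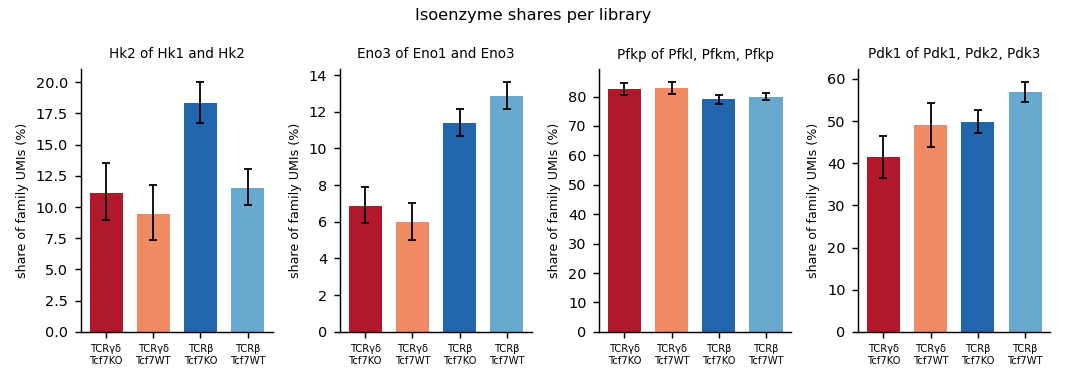
Share of a step's UMIs held by 1 gene in each library, with exact 95% binomial intervals. The Hk2 share is highest in TCRβ Tcf7KO at 18.3%, and the Eno3 share is 11.4% and 12.9% in the TCRβ libraries, above the 6.84% and 5.97% of the TCRγδ libraries.

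Other genes of sugar handling and its regulation came from 5 lists named by function. Of all genes tested in the Gzma comparison 3.85% rose and 3.47% fell, the background for the counts that follow. In the Gzma comparison 1 of 8 transporter genes tested passed, and it rose: Slc2a3, which encodes the glucose transporter GLUT3, was 0.52 ± 0.116 (SE; edgeR adjusted p = 0.0247). Its CPM were 40.5 in Gzma-positive against 30.8 in Gzma-negative cells of TCRγδ Tcf7KO, 70.2 against 36.9 in TCRγδ Tcf7WT, 39.8 against 32.9 in TCRβ Tcf7KO and 44.1 against 33.6 in TCRβ Tcf7WT. None of the 18 other sugar phosphate enzymes tested passed, nor did any of 19 cell cycle genes. Of 16 HIF regulators and targets 2 rose, Mxi1, a Myc antagonist, at 0.52 ± 0.116 and Egln1, an oxygen-sensing prolyl hydroxylase, at 0.38 ± 0.093 (edgeR adjusted p = 0.0268 and 0.0373). Ddit4, an inhibitor of mTORC1 signalling, fell, at -0.73 ± 0.136 (edgeR adjusted p = 0.0131). Its classes were nearly equal in TCRγδ Tcf7KO, at 54.3 CPM in Gzma-positive against 55.5 CPM in Gzma-negative cells. Its CPM were 63.6 against 109.7 in TCRγδ Tcf7WT, 68.0 against 108.3 in TCRβ Tcf7KO and 52.1 against 129.1 in TCRβ Tcf7WT. For genes of these lists the alternatives to the Gzma comparison are not given here. Of 15 growth regulators 1 fell, Myc, at -0.69 ± 0.095 (edgeR adjusted p = 0.00342). Myc stood at 35.8 CPM in Gzma-positive against 73.9 CPM in Gzma-negative cells of TCRγδ Tcf7KO, 38.6 against 66.9 CPM in TCRγδ Tcf7WT, 48.2 against 67.4 CPM in TCRβ Tcf7KO and 47.2 against 82.8 CPM in TCRβ Tcf7WT. All 4 Gzma-positive Myc values lay below all 4 Gzma-negative ones.

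Over all genes counted between genotypes, 3.10% were higher and 5.70% lower by 1.5-fold in the TCRβ sort, and 3.81% higher and 8.23% lower in the TCRγδ sort. The transporter list had 1 of 9 genes higher and 2 lower by 1.5-fold in the TCRβ sort, and 0 of 8 higher and 1 lower in the TCRγδ sort. In the TCRβ sort Slc16a3, which encodes the lactate exporter MCT4, had 13.3 CPM in Tcf7KO against 8.83 CPM in Tcf7WT (0.59, 0.31 to 0.88). Slc2a6, a gene of the same sugar transporter family as GLUT3, had 3.72 against 7.14 CPM (-0.94, -1.38 to -0.51). The HIF list had 2 of 17 genes higher there, Epas1, the gene of HIF-2α, at 4.71 CPM in Tcf7KO against 2.58 CPM in Tcf7WT (0.87, 0.36 to 1.39) and Vegfa at 5.09 against 3.37 CPM (0.59, 0.13 to 1.07). In the TCRγδ sort Tigar, whose product lowers fructose 2,6-bisphosphate, had 7.42 CPM in Tcf7KO against 11.2 CPM in Tcf7WT (-0.59, -1.15 to -0.04). The cell cycle list had 7 of 19 genes higher in TCRγδ Tcf7KO than in TCRγδ Tcf7WT, with a median of 0.50, and 0 of 20 in the TCRβ sort, with a median of 0.0042. Birc5 (1.05, 0.45 to 1.68) and Kif11 (0.63, 0.13 to 1.15) were those of the 7 with 100 or more UMIs. Shares over all genes are not given here for the Gzma classes, so the class counts that follow have no background. Among Gzma-positive cells of the TCRβ sort, 13 of 18 cell cycle genes were lower in Tcf7KO. Their median was -0.84, beside -0.03 over all genes. That class held 33 cycling cells in Tcf7KO, 1.75% of its cells, and 17 in Tcf7WT, 2.25% of its cells. Among Gzma-negative cells 0 of 20 were lower and 2 higher. The median there was 0.22, beside -0.06 over all genes. Without cycling cells the Hk2 ratio over both classes of the TCRβ sort stayed at 1.5-fold or more, at 0.96. A link between Hk2 and cycling was not tested.

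Between sorts the lists had genes apart in both directions, against 7.98% of all genes higher and 11.9% lower in Tcf7KO, and 9.06% higher and 10.2% lower in Tcf7WT. In Tcf7KO 1 of 8 transporter genes was higher in TCRγδ cells and 2 were lower. The counts there were 0 higher and 3 lower of 17 HIF genes, 1 higher and 2 lower of 15 growth regulators, 0 higher and 1 lower of 21 other sugar phosphate enzymes, and 3 higher and 3 lower of 20 cell cycle genes. In Tcf7WT the counts were 3 higher and 1 lower of 8 transporter genes, 1 higher and 4 lower of 17 HIF genes, 0 higher and 1 lower of 15 growth regulators, 1 higher and 2 lower of 21 other enzymes, and 0 higher and 7 lower of 20 cell cycle genes.

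Genes of these lists that were higher in TCRγδ cells by 1.5-fold, on 100 or more UMIs, were Slc16a3, Slc2a3, Mpc1, Max and Mxi1, besides 2 cell cycle genes. A gene given for 1 genotype alone missed 1.5-fold or 100 UMIs in the other genotype, where it can still lie the same way. Slc16a3 was at 21.5 against 13.3 CPM in Tcf7KO (0.69, 0.39 to 0.996) and 14.8 against 8.83 CPM in Tcf7WT (0.74, 0.36 to 1.12), with TCRγδ cells first. In Tcf7WT alone, Slc2a3 was at 57.4 against 34.8 CPM (0.72, 0.53 to 0.91), Mpc1, a subunit gene of the mitochondrial pyruvate carrier, at 16.7 against 10.9 CPM (0.62, 0.27 to 0.97) and Mxi1 at 40.9 against 23.9 CPM (0.77, 0.55 to 0.997). In Tcf7KO alone, Max, the gene of Myc's binding partner, was at 245 against 142 CPM (0.79, 0.70 to 0.88). Genes lower by 1.5-fold in TCRγδ cells of both genotypes were Myc, P4ha1 and Egln3. Myc was at 40.4 against 60.6 CPM in Tcf7KO (-0.59, -0.78 to -0.39) and 49.4 against 78.9 CPM in Tcf7WT (-0.68, -0.86 to -0.50). P4ha1, a collagen prolyl hydroxylase gene and known HIF target, was at 34.3 against 56.2 CPM in Tcf7KO (-0.71, -0.93 to -0.51) and 31.2 against 46.8 CPM in Tcf7WT (-0.59, -0.82 to -0.36). Egln3, another HIF prolyl hydroxylase gene, had 2 UMIs in TCRγδ Tcf7KO against 165 UMIs in TCRβ Tcf7KO, and 0 UMIs in TCRγδ Tcf7WT against 159 UMIs in TCRβ Tcf7WT. By that limit in Tcf7KO alone, Slc16a1, the gene of the lactate transporter MCT1, was lower at 13.2 against 25.8 CPM (-0.97, -1.31 to -0.64). So was Ddit4 at 54.4 against 94.1 CPM (-0.79, -0.96 to -0.63). Pdp1, a pyruvate dehydrogenase phosphatase gene, was at 2.23 against 5.26 CPM (-1.24, -2.13 to -0.45). Irf4, the gene of a transcription factor induced by T cell receptor signals, was at 2.37 against 4.93 CPM (-1.05, -1.92 to -0.28). In Tcf7WT alone, Slc2a6 was lower at 3.77 against 7.14 CPM (-0.92, -1.62 to -0.28).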

How the data were processed

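Transcripts of mouse colon IELs were captured in droplets and counted from their 3′ ends in 4 libraries, as the labels' protocols describe. What the authors deposited for each library is a matrix of UMI counts, in whole numbers. Seurat 3.0.0, GRCm38 and mm10 are named in the submitters' processing notes, without their roles. The aligner, the counting strand and the rule by which genes are listed are not given in the sources used here, and no mitochondrial or ribosomal protein gene is listed. The listed genes, the other gene lists and the comparisons were chosen with earlier results of these data known.

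UMIs were summed per library, after cells with 10 or more UMIs of Krt8, Krt19, Pigr and Epcam were left out, and divided by the library's total. Ratios between libraries have exact conditional intervals and no test. For the Gzma comparison, UMIs summed per library and class were tested with edgeR 4.0.16 (TMM, filterByExpr, library as a block, Benjamini-Hochberg adjustment), and the code was checked on simulated data. The SE is the absolute log2 fold change over the square root of F. The 4 libraries differ in sort and genotype, and nothing says how many animals each pools, so these p-values measure the spread among these libraries. Doublets were not removed: Scrublet (scanpy 1.11.5) marked 0 and 1 cells in TCRβ Tcf7KO and TCRβ Tcf7WT, which is too few to have worked, so its alternative was run for the TCRγδ genotype comparison alone. Depths of 6093349 to 20159687 UMIs put the interval of Hk2, for example, at 8.81 to 14.3 CPM in the shallowest library and 9.56 to 12.5 CPM in the deepest. Full values were given by rule to genes at least 1.5-fold apart with 100 or more UMIs, to genes called in the Gzma comparison and to genes of isoenzyme families; genes of the other lists were named when 1.5-fold apart with 100 or more UMIs or called, except that cell cycle genes apart between sorts are given as counts. Pgls and Aldoc fall short of 100 UMIs and were named to complete counts of 5 or fewer, after their values were seen; Gapdh, G6pdx, Hif1a and other listed genes are named as members. Alternatives covered scaling, cell filters, cycling cells, thinning, UMI minimums, Gzma cutoffs, DESeq2 1.42.0 and each library left out. Those chosen after seeing the data were the sort ratios within Gzma classes, leaving out the 5% of cells with the most UMIs, and the stricter epithelial limit in the Gzma comparison. Gene positions are from GENCODE M21 and start-site windows from RefSeq.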

Additional observations from a re-analysis of the deposited data

Results flagged for a closer look

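In the Gzma comparison, the ratio of 1 library stood far from those of the others for 2 listed genes. Pfkm had a log2 ratio of 1.04 in TCRγδ Tcf7KO, where it rests on 45 UMIs in Gzma-positive against 3 UMIs in Gzma-negative cells, against -0.62 to -0.37 in the other libraries. Pdk3 had a log2 ratio of 0.21 in TCRγδ Tcf7KO against -0.20 to -0.16 in the others. Chance alone gives such a gap in about 1 in 20 groups, and 29 genes were looked at.

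The genotype ratios of 2 genes pointed in opposite directions in the sorts, with counting intervals that exclude 0 in each. Ldha was at 0.16 in the TCRγδ sort and -0.092 in the TCRβ sort. Tkt was at 0.12 in the TCRγδ sort and -0.13 in the TCRβ sort. The TCRβ values depend on the scaling, which moved the median of all genes there from -0.07 to -0.0087 with TMM and -0.0026 with DESeq2 size factors. With TMM, Ldha was at -0.028 (-0.073 to 0.018), an interval that includes 0, and Tkt at -0.071 (-0.135 to -0.0076). In Gzma-positive cells alone, Ldha was at 0.023 and Tkt at 0.091 in the TCRβ sort. The difference between sorts was not tested, with 1 library per group.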

How the results depend on the processing

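In the Gzma comparison both classes of each library were paired by the library as a block; the labels give no replicate numbers by which the libraries themselves could be paired. Eno3 was called lower in Gzma-positive cells under every alternative to the Gzma comparison but 1, Hk1 was called higher in 13 of 16, and Hk2, Pdk1 and Tpi1 were called lower in 10, 10 and 5 of 16. The main comparison called 1 listed gene higher and 4 lower, and 421 and 379 of all genes. Without the library as a block these counts were 0, 0, 8 and 1, with an edgeR adjusted p of 0.152 for Eno3. DESeq2 called 2 listed genes lower, and 265 genes higher and 210 lower. With cells thinned, 0 listed genes were higher and 2 lower, and 225 genes were lower in all. With all cells kept, 1 listed gene was lower, and 148 genes were higher and 103 lower. Without the 5% of cells with the most UMIs, 2 listed genes were lower. Leaving out each library in turn gave 0 to 1 listed genes higher, 1 to 3 lower, 107 to 510 genes higher and 91 to 332 lower; the lowest counts came without TCRβ Tcf7WT, and without TCRβ Tcf7KO 1 listed gene was lower. Hk2 was lost without TCRβ Tcf7KO (edgeR adjusted p = 0.072) and without TCRβ Tcf7WT (0.0539), and Hk1 without TCRβ Tcf7WT (0.0585).

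The median log2 ratio of the list stayed between -0.08 and 0.05 for the genotype ratio in the TCRβ sort and between 0.02 and 0.12 in the TCRγδ sort. For the sort ratio it moved to 0.088 in Tcf7KO with all cells kept and to 0.025 in Tcf7WT in Gzma-negative cells alone. With all cells kept, the Hk2 sort ratio in Tcf7KO turned to 0.85, since the left-out TCRγδ Tcf7KO cells held 459 CPM of it. The Hk2 genotype ratio in the TCRβ sort stayed at 0.81 or above in 12 of 12 alternatives, while that in the TCRγδ sort ran from -0.25 to 1.47 over 13 and passed 1.5-fold under 2. Genes under about 100 UMIs, such as Pgls and Aldoc, have intervals too wide to place their ratios. The Scrublet alternative was not run for the other comparisons.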

Other observations

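The 52 cells left out for their epithelial transcripts, a group outside every comparison, had more of the listed genes than the IELs. The list summed to 0.69% of their UMIs in TCRγδ Tcf7KO, 0.705% in TCRγδ Tcf7WT, 0.482% in TCRβ Tcf7KO and 0.689% in TCRβ Tcf7WT, against 0.344% to 0.361% in the kept cells. Hk2 had 459, 206, 155 and 292 CPM in that order. Eno3 had 283, 324, 36.6 and 123 CPM. Tpi1, at 375 to 628 CPM, and Tkt, at 363 to 583 CPM, were above their level in the kept cells of each library, while Pfkp, at 45.7 to 128 CPM, was below it. Pfkfb3 had 0 UMIs in 3 of the 4 libraries. T cell markers were near 0 in these cells, at 15.4 to 54.8 CPM for all 10 together, against 11170 to 14019 CPM in the kept cells. The values rest on 20, 18, 3 and 11 cells and were not tested.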
